A study of Mus musculus with 4 samples.

Results

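Tm4sf1, Aqp5 and Gja1 are 3 of the 32285 genes listed in the deposited count tables. They were chosen by their measured levels along Myog, the gene of the differentiation factor myogenin, as transcripts among the most depleted in cultured muscle stem cells with high Myog. Their levels along Myog describe that choice and are no test of it. Tm4sf1 encodes a cell surface protein of the L6 family, with membrane-spanning segments like those of the tetraspanins but a separate ancestry. Aqp5 encodes a water channel best known from salivary and lacrimal glands, sweat glands and the airway. Gja1 encodes the main connexin of many tissues, whose hexamers in neighbouring cells dock into gap junction channels that pass ions and small metabolites.

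Muscle stem cells are marked by the transcription factor Pax7. Once activated they divide as myoblasts that carry MyoD, the product of Myod1, and those that go on to differentiate turn on Myog, leave the cell cycle and fuse. Connexins are known to couple myoblasts before fusion, and mature fibres lose this coupling.

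The cells were mouse skeletal muscle stem cells of a MyoD knock-in genotype (MyoD-KI), kept for 5 days in a growth medium rich in fetal bovine serum. A flow cytometer then separated cells by MyoD-tdTomato, a red fluorescent reporter, and all 4 samples are the MyoD-tdTomato high population. The low population is named in the labels and was not analysed here. The labels give neither age nor sex of the mice, nor whether animals were pooled. RNA was read by droplet single-cell sequencing of transcript 3′ ends, in which each captured molecule is counted once through a unique molecular identifier (UMI).

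The 4 replicates held 5950 to 5974 cell barcodes and 62627341 to 68898900 UMIs. Pairs of replicates shared 99.9% of the barcodes of the smaller file, or 5946 to 5965 barcodes. The median r over genes was 0.793 to 0.799 for a barcode against itself in another file, and 0.662 to 0.666 against other barcodes. The 4 files were therefore read as repeated libraries from the same cells, a single sample, and no test between conditions or groups of cells was possible. Each value below is the mean over the files, intervals are 95% intervals of counting error at the depth of 1 file, and the range over files shows how well the libraries repeat. Variation between animals, cultures and sorts is not in any of them. Kept cells were the 5481 barcodes found in every file with a mean of at least 1000 genes and under 10% mitochondrial UMIs, at a median of 11049 UMIs. Over them Myod1 stood at 507 UMIs per 1000000 (CPM), Des, the muscle intermediate filament gene, at 1165 and Myog at 1803. Summed levels of 6 immune markers were at or below 1.74 CPM and those of 6 epithelial markers at or below 1.12 CPM in every Myog class. Of the fibroblast markers, Col3a1 (160 CPM) and Ly6a (51.5 CPM) were present below 400 CPM of Myog, and Pdgfra and Dcn stayed under 1 CPM over kept cells.

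Tm4sf1 (ENSMUSG00000027800) lies on the minus strand of chromosome 3, from 57285611 to 57301988, on GRCm38 with the GENCODE M21 annotation. Aqp5 (ENSMUSG00000044217) lies on the plus strand of chromosome 15, from 99590782 to 99594829, and Gja1 (ENSMUSG00000050953) on the plus strand of chromosome 10, from 56377330 to 56402513. All are protein coding. The 250 bases before the RefSeq start (GRCm38.p6) are shown for Tm4sf1 and Gja1, both chosen for their levels along Myog. Capitals mark matches, on either strand, to the E-box letters CANNTG, the core bound by MyoD and myogenin among many other factors, and to TGANTCA, the letters of the AP-1 site. The windows are chr3:57301989-57302238 (minus strand) and chr10:56377050-56377299 (plus strand), each written 5′ to 3′ along its gene.
Tm4sf1: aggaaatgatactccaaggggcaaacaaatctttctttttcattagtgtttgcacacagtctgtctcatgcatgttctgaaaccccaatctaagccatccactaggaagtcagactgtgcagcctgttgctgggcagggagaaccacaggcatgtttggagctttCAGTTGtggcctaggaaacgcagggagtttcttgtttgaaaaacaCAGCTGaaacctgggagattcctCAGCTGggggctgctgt
Gja1: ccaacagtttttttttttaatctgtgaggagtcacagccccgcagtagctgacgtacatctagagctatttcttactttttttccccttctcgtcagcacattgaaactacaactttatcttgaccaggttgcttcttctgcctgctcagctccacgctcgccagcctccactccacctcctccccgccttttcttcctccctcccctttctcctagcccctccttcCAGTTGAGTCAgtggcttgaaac
The Tm4sf1 window held 3 E-box matches and no AP-1 match. The Gja1 window held 1 match of each kind, which overlap by 2 bases: the AP-1 letters run from 19 to 13 bases before the start and the E-box letters from 23 to 18 bases before it. Of 32851 RefSeq promoter windows of this length, 66.2% held an E-box match and 6.75% an AP-1 match. The window before the RefSeq start of Aqp5 lies almost wholly within the GENCODE gene and is not printed. It held 1 E-box match and none to AP-1, and its G and C content was 78.4%, against 48% for Tm4sf1 and 50% for Gja1. None of the windows held the TEAD letters GGAATG, which 12.6% of all windows held. The xenobiotic response core GCGTG had 2 matches in the Aqp5 window, 1 in that of Gja1 and none in that of Tm4sf1. Of all windows 28.2% held it. These are matches of letters and show no binding.

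Over all kept cells Tm4sf1 stood at 49.6 CPM (48.0 to 51.4), with 50.3, 49.4, 50.1 and 48.7 CPM in replicates 1 to 4. Aqp5 stood at 30.6 CPM (29.3 to 32.0), with 31.2, 30.4, 31.3 and 29.4 CPM. Gja1 stood at 27.3 CPM (26.0 to 28.5), with 27.5, 27.0, 27.4 and 27.2 CPM. The libraries thus repeated each level closely. The values hide an uneven spread over cells, since each gene was concentrated in cells with little Myog.

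Kept cells were divided by Myog into 2572 cells below 400 CPM, 579 from 400 to 1500 CPM and 2330 at 1500 CPM or more, with median depths of 10892, 11504 and 11087 UMIs. Tm4sf1 stood at 97.7, 96.4, 98.8 and 94.2 CPM in replicates 1 to 4 of the cells with the least Myog. It stood at 22.6, 23.9, 21.8 and 25.1 CPM in the middle class, and at 6.82, 5.81, 5.50 and 6.32 CPM in cells at 1500 CPM of Myog or more. The 3 classes did not overlap over the files, which are repeated libraries of the same cells. On the log2 scale of CPM plus 1, the difference between the highest and lowest Myog class was -3.78 (-3.98 to -3.59).

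Aqp5 gave the same order. It stood at 60.8, 59.6, 61.2 and 57.5 CPM below 400 CPM of Myog, at 16.2, 15.1, 15.2 and 12.9 CPM in the middle class, and at 3.53, 3.23, 3.53 and 3.71 CPM in the highest class. Its log2 difference was -3.76 (-4.00 to -3.52). Gja1 stood at 51.2, 50.8, 51.5 and 50.8 CPM, then 19.3, 16.7, 17.0 and 17.1 CPM, then 4.26, 4.20, 4.23 and 4.58 CPM. Its log2 difference was -3.29 (-3.52 to -3.07).

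Of 13133 genes with at least 50 UMIs per file, 17% were at least 2-fold lower in the highest Myog class and 7.65% at least 2-fold higher, and all 3 genes are among the former by choice. Their log2 ratios ranked 1 (Tm4sf1), 2 (Aqp5) and 9 (Gja1) from the lowest, and the median over all genes was -0.28. The middle class already differed from the lowest by -2.01 (Tm4sf1), -1.94 (Aqp5) and -1.49 (Gja1), where 2.12% of genes were at least 2-fold lower and 3.32% at least 2-fold higher. Just inside and outside the lower limit, cells at 300 to 400 and at 400 to 500 CPM of Myog had 29.7 and 42.0 CPM of Tm4sf1, 19.5 and 11.5 CPM of Aqp5, and 31.5 and 21.3 CPM of Gja1. At the upper limit, cells at 1200 to 1500 and at 1500 to 1800 CPM had 15.6 and 14.7 CPM of Tm4sf1, 12.7 and 7.11 CPM of Aqp5, and 12.6 and 10.5 CPM of Gja1. Intervals overlapped at both limits for each gene, so no step was detectable at either limit.

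A finer division showed where along Myog the transcripts thinned out. Tm4sf1 stood at 119 CPM (108 to 132) in the 361 cells with no Myog UMI and at 109.6 CPM (105 to 114) between 0 and 100 CPM, intervals that overlap. It was at 57.1 CPM between 100 and 400 CPM, at 27.8 and 20.1 CPM in the following bins, and at 11.5 and 3.43 CPM from 1500 to 3000 and from 3000 to 6000 CPM. Aqp5 differed already between cells without Myog, at 88.9 CPM (78.9 to 100.1), and cells between 0 and 100 CPM, at 67.7 CPM (64.1 to 71.5). The cells without a Myog UMI were shallower, at a median of 8009 against 11935.5 UMIs, and the part of depth was not tested. The level of Aqp5 between 800 and 1500 CPM, 17.4 CPM (13.8 to 21.9), was not below that between 400 and 800 CPM, 11.2 CPM (7.86 to 15.6). Gja1 went from 63.3 and 56.6 CPM to 32.8, 20.5, 15.4, 8.51 and 2.03 CPM over the same bins. In the 332 cells at 6000 CPM of Myog or more, a file held 1.75 UMIs of Tm4sf1, 1.75 of Aqp5 and 2.75 of Gja1 on average, at or under the 3 counts taken as the floor.

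**Figure D1:**
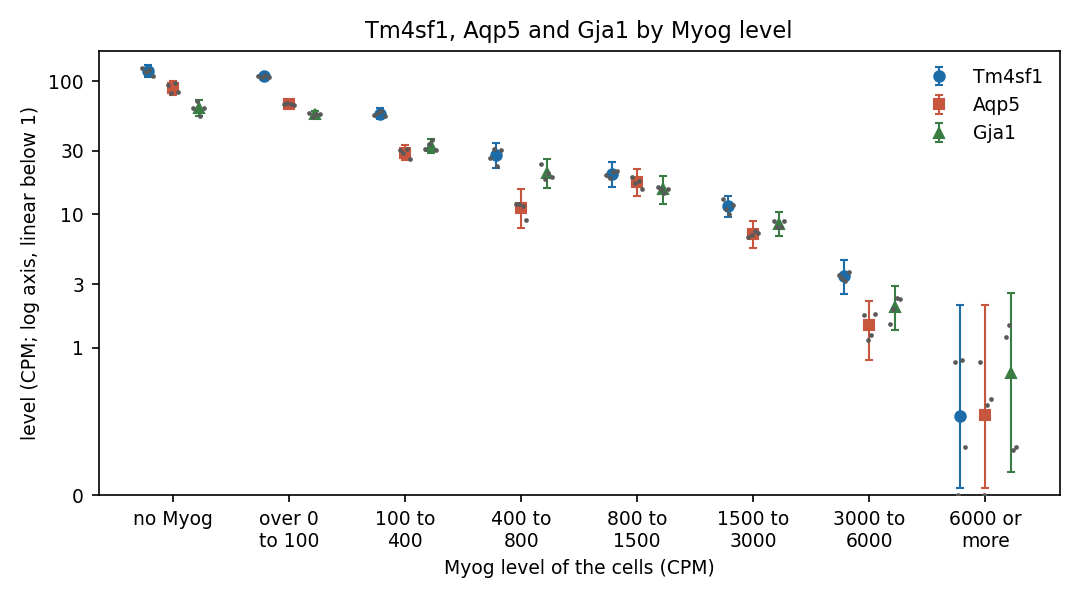
Level of each gene (CPM, log axis that is linear below 1) in 8 bins of kept cells by their Myog level (CPM). Large symbols are means over the 4 files, bars 95% counting intervals at the depth of 1 file and dots the single files; all 3 genes were lower between 100 and 400 CPM of Myog than below 100 CPM, and were close to 0 in the last bin.

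Cells with little Myog were also richer in transcripts of division and in Pax7. Of 8 stem or progenitor markers at 1 CPM or more, 6 were at least 2-fold lower in the highest Myog class, against 17% of all genes. The other 2, Itga7 (44.2 and 54.5 CPM) and Spry1 (9.43 and 15.5 CPM), were higher there by less than 2-fold. Mki67 and Top2a, made in dividing cells, stood at 239 and 385 CPM below 400 CPM of Myog and at 59.5 and 124 CPM in the highest class, and Pax7 at 104 and 10.4 CPM. The 3 genes were therefore read within classes set by Pax7 (a UMI in any file) and by the sum of Mki67 and Top2a (cycling at 100 CPM or more). In Pax7-undetected, non-cycling cells Tm4sf1 stood at 96.9 CPM below 400 CPM of Myog and 1.79 CPM at 1500 CPM or more. For Aqp5 the values were 71.6 and 1.04 CPM, and for Gja1 25.9 and 0.996 CPM. The genes were chosen for their difference along Myog, so these values are a description. Both sides also differed in cells under 2000 CPM of Malat1, an abundant nuclear RNA, which made up 45.5% of the class with little and 8.37% of that with much Myog. Without them the levels below 400 CPM of Myog were 48.7 (Tm4sf1), 40.3 (Aqp5) and 27.6 CPM (Gja1). Some markers of other cells moved with Myog as well. Of the 7 fibroblast markers, Col3a1 stood at 160, 111 and 57.1 CPM and Ly6a at 51.5, 20.6 and 8.54 CPM over the rising Myog classes. Pdgfra, Dcn, Lum, Col1a1 and Dpt were each under 1 CPM over kept cells. Of 7 pericyte or smooth muscle markers, Notch3 (88.6 and 12.01 CPM), Rgs5 (9.47 and 1.02 CPM) and Pdgfrb (8.73 and 0.744 CPM) were at least 2-fold lower in the highest class, and Abcc9 and Acta2 at least 2-fold higher. The part of such cells in the levels of the 3 genes was not tested.

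Below 400 CPM of Myog, Pax7 was detected in 2221 of 2572 cells (86.4%), with a median depth of 11277 UMIs against 8838 in the other 351. Gja1 was graded by Pax7. It stood at 53.3, 53.5, 54.0 and 53.1 CPM in Pax7-detected cells and at 33.3, 28.2, 30.2 and 32.1 CPM in the others, a log2 difference of 0.77 (0.485 to 1.07). By Pax7 level it stood at 36.4 CPM (32.8 to 40.3) under 50 CPM of Pax7, 53.7 CPM (49.7 to 57.8) from 50 to 150 CPM and 67.4 CPM (61.6 to 73.7) above. Tm4sf1 stood at 90.8, 103 and 94.8 CPM over these Pax7 levels and Aqp5 at 50.4, 69.3 and 56.3 CPM, both with the highest value in the middle. Between the highest and lowest Pax7 level the log2 difference was 0.06 (-0.08 to 0.20) for Tm4sf1 and 0.16 (-0.03 to 0.35) for Aqp5. Cells under 2000 CPM of Malat1 made up 31.3%, 12.1% and 5.32% of the cells at these Pax7 levels.

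Tm4sf1 showed no difference by Pax7 detection in these cells, at 96.8 CPM (93.1 to 100.6) with and 96.6 CPM (86.3 to 108.0) without it. Aqp5 stood at 60.8 CPM (57.9 to 63.9) with and 51.3 CPM (43.7 to 59.7) without, a log2 difference of 0.24 (0.02 to 0.48) that was 0.0170 without replicate 2 and 0.53 without replicate 4. Of all 13133 genes 1.6% were at least 2-fold higher and 0.267% at least 2-fold lower in Pax7-detected cells, at a median of 0.18, and none of the 3 genes reached that fold. The Pax7 comparison depended on cells poor in Malat1. Cells under 2000 CPM of it made up 44.7% of Pax7-undetected and 12.7% of Pax7-detected cells. Below 400 CPM of Myog these Malat1-poor cells held more Tm4sf1 (127 against 91.7 CPM) and Aqp5 (71.6 against 57.8 CPM) and less Gja1 (31.1 against 54.4 CPM) than the rest. Without them, the log2 difference by Pax7 was 0.48 (0.23 to 0.75) for Tm4sf1, 0.77 (0.42 to 1.14) for Aqp5 and 0.75 (0.39 to 1.13) for Gja1. The part of RNA quality in the comparison was not tested further.

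Below 400 CPM of Myog, Aqp5 was lower and Gja1 higher in cycling cells. Tm4sf1 stood at 94.5 CPM (90.5 to 98.8) in 1615 cycling and 102 CPM (95.7 to 109.0) in 957 non-cycling cells, a log2 difference of -0.11. Aqp5 was lower in cycling cells, at 56.5 CPM (53.4 to 59.8) against 67.7 CPM (62.4 to 73.4), or -0.26, and Gja1 higher, at 53.7 CPM (50.6 to 56.9) against 44.8 CPM (40.5 to 49.4), or 0.26. Cycling cells were deeper, at 12366 against 8894 UMIs. Of all genes 4.55% were at least 2-fold higher and 1.9% at least 2-fold lower in cycling cells, and the 3 genes were in neither set. Aqp5 stood apart in the Pax7-undetected cells, with 31.1, 33.1, 34.5 and 38.8 CPM in the 175 cycling and 74.5, 63.3, 76.0 and 72.5 CPM in the 176 non-cycling ones. Malat1-poor cells were 44% and 45.5% of these classes, and without them Aqp5 stood at 30.2 CPM (20.4 to 42.4) and 40.3 CPM (28.0 to 56.4), intervals that overlap.

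**Figure D2:**
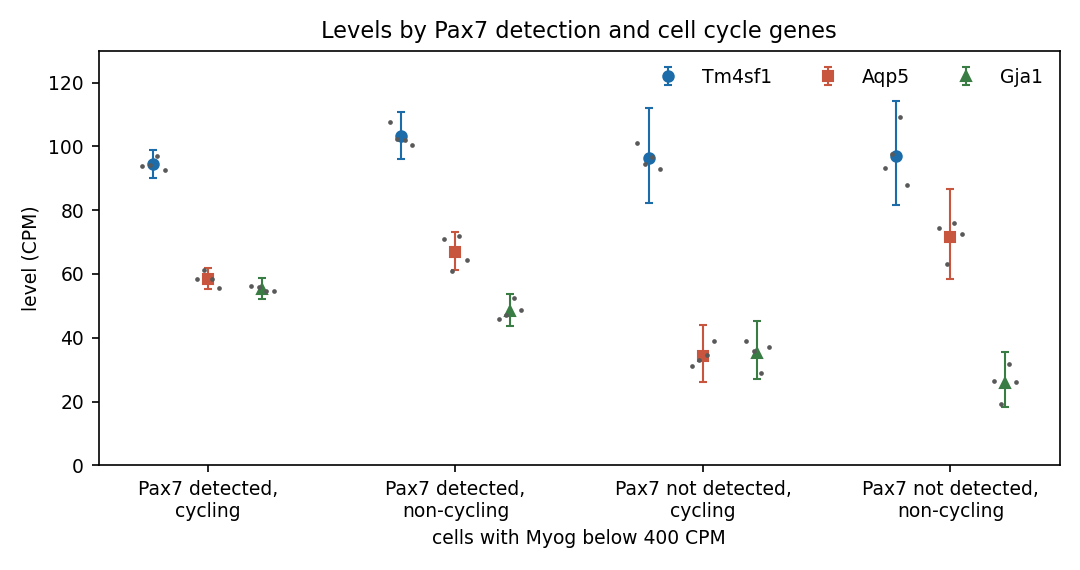
Level (CPM) of each gene in cells below 400 CPM of Myog, by Pax7 detection and by the sum of Mki67 and Top2a (cycling at 100 CPM or more). Large symbols are means over the 4 files, bars 95% counting intervals and dots single files; Tm4sf1 lies between 94.4 and 103 CPM in all classes, Gja1 is lowest where Pax7 was not detected, and Aqp5 is lowest in Pax7-undetected cycling cells.

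Myod1, whose reporter defined the sort, also graded the genes below 400 CPM of Myog. Tm4sf1 stood at 133 CPM (127 to 139) in 1155 cells under 250 CPM of Myod1, 83.3 CPM (77.5 to 89.4) from 250 to 500 CPM and 57.6 CPM (52.6 to 63.0) in 694 cells above. Gja1 stood at 62.8, 48.5 and 36.3 CPM over the same cells. Aqp5 stood at 70.1 CPM in the first and at 50.7 CPM (46.2 to 55.5) and 54.3 CPM (49.4 to 59.4) in the others, which overlap. Tm4sf1 and Gja1 were thus lower in each higher class of Myod1, and Aqp5 was highest under 250 CPM. Cells just inside and outside these limits were not compared, and the classes were not matched for Myog.

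The transcripts that remained at 1500 CPM of Myog or more were unevenly held. Tm4sf1 stood at 18.2 CPM (15.2 to 21.7) in the 429 cells with Pax7 and 2.30 CPM (1.69 to 3.02) in the 1901 without it. Aqp5 stood at 10.8 and 1.19 CPM and Gja1 at 13.0 and 1.57 CPM in the same cells. In cycling cells of this class Tm4sf1, Aqp5 and Gja1 stood at 16.9, 8.97 and 12.9 CPM, against 3.05, 1.95 and 1.87 CPM in the others. Cells with both Pax7 and cycling transcripts had the highest levels, 28.1, 15.6 and 20.6 CPM, and a median depth of 18609 UMIs, above the 11087 UMIs of the class. No doublet caller was run, and droplets with more than 1 cell are often deep. With the 5% of kept cells with the most UMIs left out, which removes 32.0% of that group, the levels were 17.7, 15.0 and 15.0 CPM. The log2 difference by Pax7 was then 2.02 for Tm4sf1 (2.54 with all cells), 2.05 for Aqp5 (2.45) and 1.92 for Gja1 (2.45). The whole class, including the cells above, was also read by late markers. It was divided into cells with under 1000, 1000 to 10000 and at least 10000 CPM of Acta1 plus Myh3, genes of the contractile apparatus. Over these, Gja1 stood at 7.85, 4.24 and 0.983 CPM, Tm4sf1 at 9.10, 6.31 and 2.59 CPM and Aqp5 at 4.72, 3.55 and 2.15 CPM. The whole class held 121.5 UMIs of Gja1, 172.25 of Tm4sf1 and 98.5 of Aqp5 per file. The bins thus rest on few UMIs, least for Aqp5, and a step between neighbouring bins is not claimed.

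Levels averaged over a class do not show how many cells carry a gene, so each cell was thinned to 5000 UMIs per file, which kept 2398 of the 2572 cells below 400 CPM of Myog and 2247 of the 2330 at 1500 CPM or more. Tm4sf1 was then found in 25.7% (23.9 to 27.5) of the cells with little Myog and in 1.84% (1.32 to 2.48) of those with much. Aqp5 was found in 14.5% (13.1 to 15.9) and 1.01% (0.641 to 1.52), and Gja1 in 20.9% (19.3 to 22.6) and 1.48% (1.02 to 2.07). Without thinning the shares were 39.5% and 4.01% for Tm4sf1, 20.9% and 2.16% for Aqp5, and 37.2% and 3.97% for Gja1. Median depths of the thinned cells had been 11276 and 11244 UMIs. At 6000 CPM of Myog or more the thinned shares were 0.0786%, 0.550% and 0.157%, under the floor of 0.943% that 3 cells of 318 would give and far under the shares among cells with little Myog.

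The genes differed in how their transcripts were spread among the cells below 400 CPM of Myog. Aqp5 and Gja1 had similar means, 0.293 and 0.257 UMIs per cell and file at 5000 UMIs, and opposite distributions. Summed over the 4 files, 1782 cells (74.3%) held no Aqp5 UMI while 80 cells (3.34%) held 10 or more and carried 44.5% of all Aqp5 UMIs. For Gja1, 1161 cells (48.4%) held none, 1096 cells (45.7%) held 1 to 3, and 5 cells held 10 or more. Tm4sf1 had 1214 cells (50.6%) at 0 and the most cells at 10 or more, 96 (4.003%), which carried 33.6% of its UMIs. The spread of counts between files was 0.857 to 0.868 of that of independent draws, so part of the molecules is read in several files and these sums are not numbers of independent molecules. The 10% of cells ranked highest on the other 3 files held 70.7% of the Aqp5 UMIs of a file (68.2 to 72.3 over files), 48.9% of those of Tm4sf1 (48.2 to 49.6) and 24.7% of those of Gja1 (23.1 to 25.9). The same share was 18.5% for Gapdh, a housekeeping gene, and 25.7% for Pax7.

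**Figure D3:**
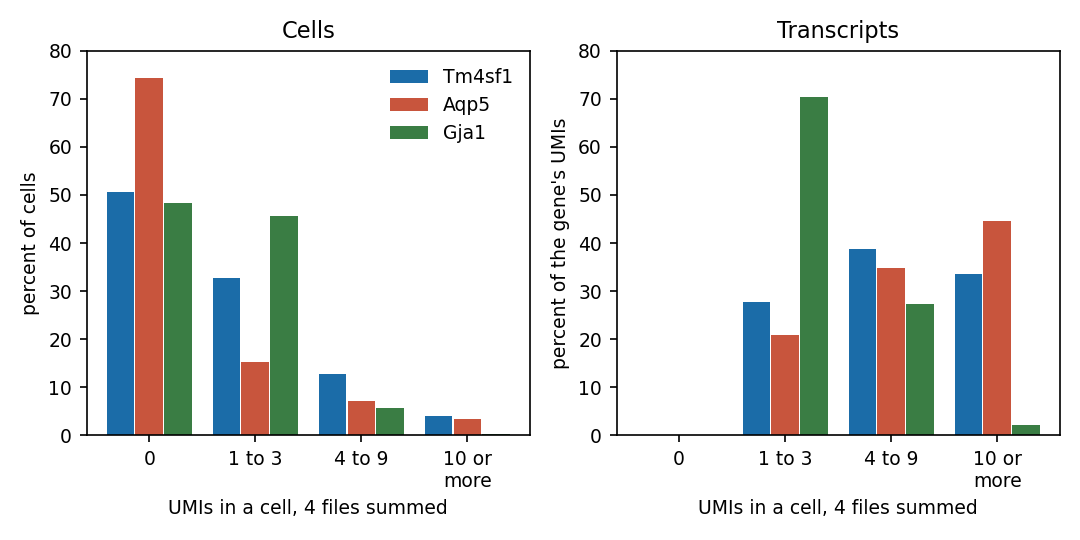
Cells below 400 CPM of Myog, thinned to 5000 UMIs per file, by the number of UMIs of a gene summed over the 4 files: percent of the 2398 cells (left) and percent of the gene's UMIs (right). Aqp5 has the most cells at 0 and the largest share of its UMIs in cells with 10 or more, while 70.4% of the Gja1 UMIs are in cells with 1 to 3.

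A cell that held Aqp5 in 1 file tended to hold it in another. It was found again in 61.5% of such cells and in 6.50% of cells without it in the first file. For Tm4sf1 the shares were 55.9% and 15.2%, and for Gja1 33.7% and 17.5%. Molecules read in several files add to finding the same gene again, and their part in these shares was not tested. Of the 80 cells with 10 or more UMIs of Aqp5, 86.3% had Pax7 against 87.7% of all thinned cells. Of these 80 cells 52.5% were cycling against 65.2% of all, and their median depth was 11160 UMIs. Of the 96 cells rich in Tm4sf1 89.6% had Pax7 and 55.2% were cycling. Malat1-poor cells made up 26.3% of the cells rich in Aqp5 and 15.5% of those at 0, and 22.9% and 14.1% for Tm4sf1. For Gja1 they were 7.35% of the cells with 4 to 9 UMIs, 0% of the 5 with 10 or more and 20.5% of those at 0. The part of RNA quality in these cells was not tested.

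Tm4sf1 and Aqp5 were found in the same cells more often than their shares would give if unrelated. At 5000 UMIs Aqp5 was found in 26.6% of cells with Tm4sf1 and in 10.3% of cells without, a difference of 16.4 percentage points (12.6 to 20.3, and 14.6 to 18.5 over files). With Tm4sf1 read in 1 file and Aqp5 in another the difference was 17.1 points (13.3 to 20.99). Both were found in 6.84% of cells, where the product of their shares is 3.71%. Of the 96 cells rich in Tm4sf1 12 were among the 80 cells rich in Aqp5 (12.5% of the first and 15% of the second), and 2.95% of the remaining cells were rich in Aqp5.

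The differences in points were smaller for Gja1, which was also found again in another file less often. Against itself in another file Gja1 differed by 16.2 points and Aqp5 by 55.02, so the points do not show how closely Gja1 goes with either gene. It was found in 24.8% of cells with Tm4sf1 and 19.6% without, a difference of 5.17 points (1.30 to 9.21). Of cells with Aqp5 25.3% also held Gja1, and of cells without Aqp5 20.2%. That gap was 5.12 points (0.283 to 10.3) in the same file and 4.70 points (-0.116 to 9.90) across files, where the interval includes 0. All 3 genes were found together in 1.68% of cells (1.20 to 2.28), where the product of the shares is 0.777%, and none of them in 54.1%, where it is 50.3%.

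The link between Tm4sf1 and Aqp5 was also read within the Pax7 and cycling classes. Across files the difference was 14.5 points (9.77 to 19.6) in Pax7-detected cycling cells and 20.99 points (13.6 to 28.8) in Pax7-detected non-cycling cells. In the Pax7-undetected classes, cycling and non-cycling, it was 15.1 points (1.88 to 32.6) and 26.4 points (8.47 to 46.4), from 160 and 136 cells. With both genes read in the same file, Pax7-undetected cycling cells gave 11.8 points (-0.797 to 28.9), an interval that includes 0. The same-file intervals of the other classes left out 0. Across files, the difference was also read by Myog. It was 20.3 points (9.07 to 32.1) in cells without any Myog UMI and 14.8 points (7.04 to 24.0) between 100 and 400 CPM of Myog. For Gja1 the intervals within the 4 classes all included 0. Malat1-poor cells, which held more Tm4sf1 and Aqp5, made up 44% and 45.5% of the Pax7-undetected cycling and non-cycling classes before thinning. Co-detection was not read without them, and their part in the link was not tested.

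**Figure D4:**
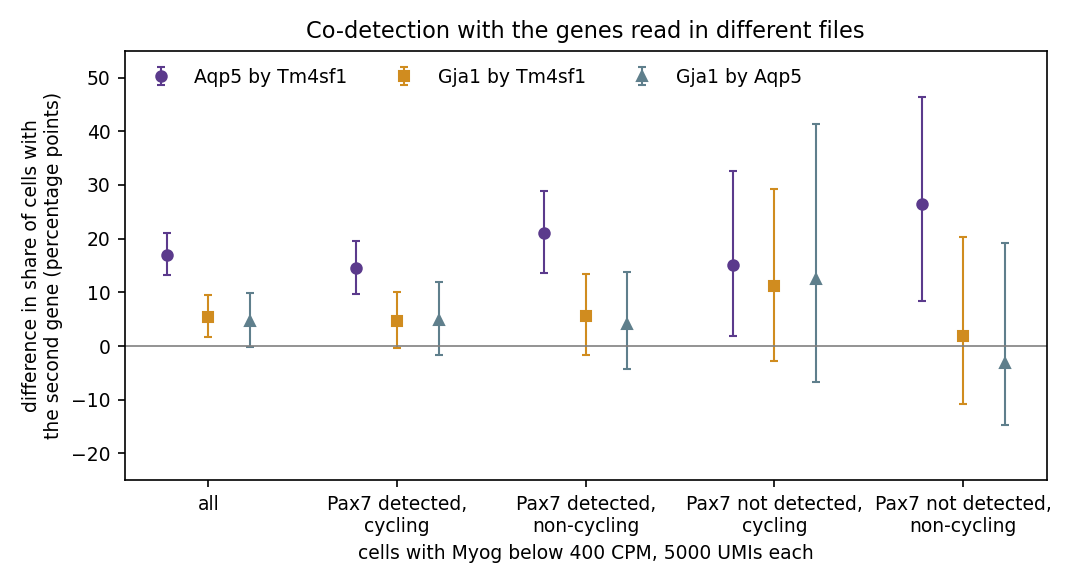
Difference (percentage points) in the share of cells with the second gene between cells with and without the first, in cells below 400 CPM of Myog at 5000 UMIs, with the genes read in different files and bars of 95% counting intervals. Aqp5 by Tm4sf1 lies above 0 in every class; Gja1 by either gene lies closer to 0.

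To see what else marked the cells with each gene, cells below 400 CPM of Myog were divided by a UMI of the gene in 3 files and compared in the file left over, gene by gene, on 10290 genes. For Tm4sf1 0.282% of genes were at least 2-fold higher and 0.496% at least 2-fold lower in cells with it. The largest difference was that of Aqp5, at 102 against 24.2 CPM (log2 2.03, 1.84 to 2.24 over files). Cyp1a1, an enzyme that oxidises xenobiotics, followed at 8.53 against 1.76 CPM, then Eps8, an actin regulator downstream of growth factor receptors, at 20.5 against 6.13 CPM. Ahr, the aryl hydrocarbon receptor that induces Cyp1a1, stood at 11.9 against 3.52 CPM, and Prkg2, a cyclic GMP dependent kinase, at 39.7 against 13.3 CPM. The lowest ratios were those of Frmpd1 (-1.61), Galnt18 (-1.58), Sox6 (-1.46), the oestrogen receptor gene Esr1 (-1.45) and Pdlim3 (-1.45). Between the highest and lowest Myog class, Frmpd1 (log2 4.11), Pdlim3 (3.44), Sox6 (2.52) and Galnt18 (2.33) were higher and Esr1 lower (-0.41). Aqp5, Eps8, Prkg2, Ahr and Cyp1a1 were all lower with Myog, from -3.76 to -2.01. The part of Myog in this division was not tested.

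Cells with Aqp5 gave a related set, drawn from overlapping cells. Of 10290 genes 0.282% were at least 2-fold higher and 0.593% at least 2-fold lower. Cyp1a1 led at 12.8 against 2.31 CPM (log2 2.05), then Eps8 at 25.6 against 8.51 CPM and Itga6, a laminin receptor subunit, at 49.95 against 17.4 CPM. Tm4sf1 followed at 184 against 66.9 CPM and Cxcl12, a chemokine, at 60.0 against 23.1 CPM. Lowest were Rgs2, a regulator of G protein signalling, at 7.51 against 46.4 CPM (-2.48), and Car3, a carbonic anhydrase of muscle, at 16.0 against 80.6 CPM (-2.29). Esr1 (-2.01), Tgfbr3 (-1.95) and Car2 (-1.85) came next. Between the highest and lowest Myog class, Car2 (log2 2.22), Car3 (1.97) and Itga6 (1.06) were higher, and the other genes named here lower. Cyp1a1, Eps8 and, on the low side, Esr1 were named for both genes.

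Cells with Gja1 differed little from those without. No gene of 10290 was at least 2-fold higher or lower (0%). The highest ratios were those of Cyyr1 (0.97), Ano3 (0.92), Bmper (0.90), Nav3 (0.87) and Gucy1a1 (0.87). The lowest were those of Tnnc2 (-0.92), Tmem56 (-0.80), Acta1 (-0.78), Mb (-0.78) and Pdlim3 (-0.77), of which Tnnc2, Acta1 and Mb belong to differentiated muscle. Gja1 was also found again in another file less often than the others, and the part of this in the small differences was not tested.

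Some genes were read in each division whatever their ratio. Malat1 was lower with Tm4sf1 (log2 -0.22, -0.24 to -0.20) and Aqp5 (-0.11, -0.13 to -0.0863) and higher with Gja1 (0.11, 0.0926 to 0.13), and the part of RNA quality in the divisions was not tested. Pax7 did not differ by Tm4sf1 (106 CPM on both sides) and stood at 121 against 94.6 CPM by Gja1. Myf5, an early myogenic factor, stood at 60.2 against 103 CPM by Aqp5 (-0.77), at -0.31 by Tm4sf1 and at 0.08 by Gja1. Spp1, the secreted protein osteopontin, stood at 1022 against 439 CPM by Tm4sf1 (1.22) and at 1012 against 601 CPM by Aqp5 (0.75). Mgp, matrix Gla protein, stood at 1165 against 582 CPM and at 1216 against 726 CPM. By Gja1 the log2 differences of Spp1 and Mgp were 0.25 and 0.34. Myog itself was lower with each gene within the cells below 400 CPM, at -0.46 (Tm4sf1), -0.47 (Aqp5) and -0.44 (Gja1), and Mki67 was higher with Gja1 (0.45) and near equal with Tm4sf1 (0.03) and Aqp5 (-0.10). Of the fibroblast markers read, Pdgfra and Dcn were at or under 1.03 CPM on both sides of every division. Col3a1 was present on both sides, at 166 against 172 CPM by Tm4sf1, 148 against 176 CPM by Aqp5 and 174 against 165 CPM by Gja1.

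Likeness was read over 12 classes of cells (3 of Myog by Pax7 by cycling) as the correlation of log2 CPM plus 1, a description of points that share libraries and were partly set by Myog. Among the genes most like Tm4sf1 were Kazald1 (r = 0.99), P4ha3, Ccdc102a and Fxyd5, and Aqp5 was most like P4ha3 (r = 0.98), Kazald1, Gm37800, Ly6c1 and Pgf. Gja1 was most like Phc2 (r = 0.99), Unc5b, Ebf1, Sept6 and Ephb4. Between the members r was 0.96 for Tm4sf1 and Aqp5, 0.96 for Tm4sf1 and Gja1 and 0.93 for Aqp5 and Gja1. Such values were common, since 93 genes passed r = 0.95 with Tm4sf1, 40 with Aqp5 and 104 with Gja1.

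Relatives of each gene were counted over kept cells at 1 CPM or more. Tm4sf1 was the only one of 5 L6 family genes at that level, the others being at or below 0.156 CPM. Of 20 tetraspanins at 1 CPM, 5 were at least 2-fold lower at 1500 CPM of Myog or more (Cd9, Cd151, Tspan4, Tspan5 and Tspan12), 2 were higher (Tspan18 and Tspan33) and 13 lay between, with a median of -0.39. Of all genes 17% were lower and 7.65% higher by that fold, at a median of -0.28, and the counts of the lists below are read beside these shares. Tspan33 stood at 12.5 CPM with little and 122 CPM with much Myog.

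Aqp5 was the leading aquaporin. Of 12 aquaporins 2 reached 1 CPM, and the other was Aqp1, a water channel of red cells and endothelium, at 5.66 CPM with little and 0.836 CPM with much Myog. Endothelial markers summed to 6.92 and 3.89 CPM in these classes. Aqp4, the aquaporin of mature fast muscle fibres, was at 0 in every file, as were Aqp3, Aqp6 and Aqp9. Of 5 genes of ion transport and cell volume at 1 CPM, Slc12a2 (22.0 and 75.7 CPM) and Atp1b1 (10.0 and 26.6 CPM) were at least 2-fold higher with Myog, none was at least 2-fold lower and 3 lay between, where the shares over all genes were 7.65% higher and 17% lower.

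The connexins differed in direction along Myog. Of 19 connexin genes 5 reached 1 CPM and 6 were at 0, and of those at 1 CPM 2 were at least 2-fold lower and 3 at least 2-fold higher with Myog, at a median of 1.08. The same shares over all genes were 17% and 7.65%, and 5 genes are few to set beside them. Besides Gja1, Gjc1 was lower, at 44.5 and 8.51 CPM. In the other direction Gja3 stood at 5.07 and 11.9 CPM, Gja5 at 0.248 and 2.23 CPM, and Gjd4, a connexin described in muscle cells, at 0.124 and 7.45 CPM. Gjc1 was higher in cycling than non-cycling cells below 400 CPM of Myog (log2 1.07), where Gja1 differed by 0.26. Panx1, a channel of the related pannexin family, stood at 11.5 and 9.60 CPM. Among 9 genes of proteins that bind or turn over the Gja1 protein, the caveolin Cav1 (32.5 and 4.22 CPM) was at least 2-fold lower, Dbn1, the actin binding drebrin, was higher (12.8 and 145 CPM), and 7 lay between. With 1 of 9 in each direction this is near the 17% lower and 7.65% higher of all genes.

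**Figure D5:**
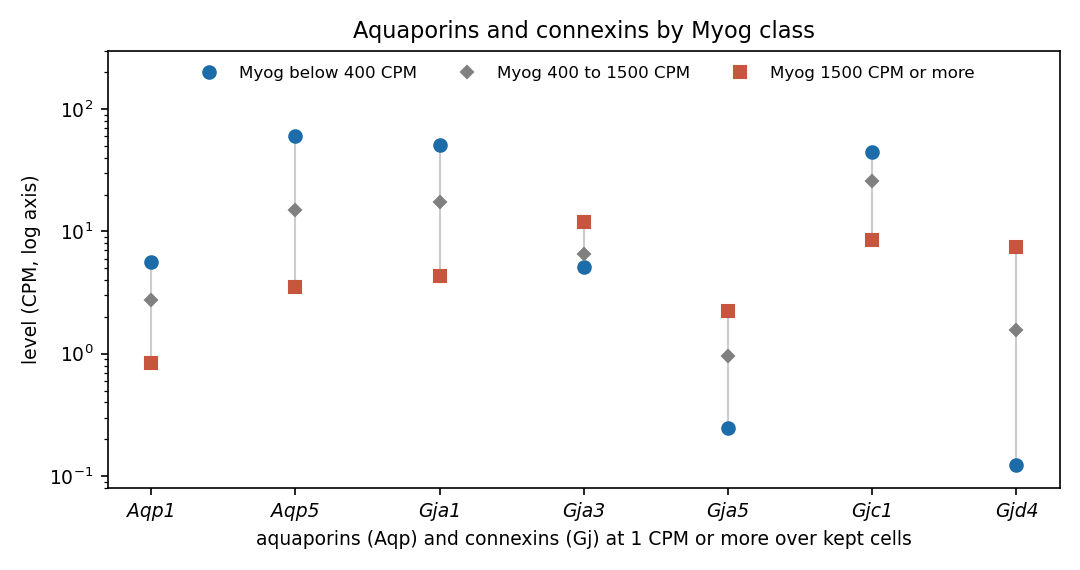
Level (CPM, log axis) of the listed aquaporins and connexins at 1 CPM or more over kept cells, as means over the 4 files in cells below 400, from 400 to 1500 and at 1500 CPM of Myog or more. Aqp1, Aqp5, Gja1 and Gjc1 are lower with Myog and Gja3, Gja5 and Gjd4 are higher.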

How the data were processed

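The authors deposited 4 matrices of whole-number UMI counts, 1 per sample of MyoD-tdTomato high cells, with no normalization. These were made with Cell Ranger, version 7.1.0 per the file headers and 3.1.0 per the submitters' processing notes, which name both mm10 and GRCm39 as builds. Whether intronic reads were counted is not given in the sources used here. Of the 32285 gene identifiers 99.6% were found in GENCODE M21, from which coordinates were taken. RefSeq promoter windows were matched by symbol for all 3 genes.

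CPM is UMIs of a gene per 1000000 UMIs of the cells summed, computed per file and averaged. Ratios are log2 of CPM plus 1, which understates differences of low genes. The design had 1 group, so no p-value was computed. Levels carry exact 95% Poisson intervals, shares Clopper-Pearson and ratios conditional binomial ones, each taken at the average count per file. A difference between shares carries the combined binomial bounds. For shares, cells were thinned to 5000 UMIs (seed 7) and shallower cells left out. No doublet caller was run. The code for the ratios and co-detection was run on simulated counts with known answers. These counts shared no molecules between files, unlike part of the real ones, so that setting was not covered. Python 3.11.15, numpy 2.4.6, scipy 1.17.1 and pandas 2.3.3 were used.

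The 3 genes and the gene lists were chosen with earlier results of these data known. Beside the members, the text names genes of the lists at 1 CPM or more with values for those at least 2-fold apart by Myog, the 5 most alike genes, and the 5 highest and 5 lowest of each division with the same direction in every file and at least 50 UMIs. Genes read in every division come from the lists. Some genes that these rules name are not reported here, and counts over the lists leave them out. The alternatives were other cell filters, Myog, Pax7 and cycling limits, depths, scalings, cell weightings, omission of Malat1-poor cells or of the deepest cells, and omission of each file.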

Additional observations from a re-analysis of the deposited data

Results flagged for a closer look

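Of 36 sets of 4 file values examined for the 3 genes, 3 held a file far from the others, all for Gja1. About 1 in 20 such sets is marked by chance, and some of these sets share cells. Gja1 between 400 and 1500 CPM of Myog was 19.3 CPM in replicate 1, against 16.7 to 17.1 CPM in the other files. At 1500 CPM of Myog or more it was 4.58 CPM in replicate 4, against 4.20 to 4.26 CPM, and the log2 ratio between the highest and lowest Myog class in that file was -3.22. Each of these values lies within the 95% counting interval of the mean.

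The 463 barcodes present in all files but left out for few genes or many mitochondrial UMIs also held the genes. Their median depth was 1207 UMIs, of which 40.9% were mitochondrial. Tm4sf1 stood at 7.60 CPM (2.88 to 16.4), Aqp5 at 5.77 CPM (1.82 to 13.9) and Gja1 at 21.7 CPM (12.8 to 34.5). These levels rest on 6.25, 4.75 and 17.8 UMIs per file. Against kept cells, at 49.6, 30.6 and 27.3 CPM, the interval of Gja1 alone includes the kept level. The reason was not tested.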

How the results depend on the processing

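The levels over kept cells, the Myog, Pax7 and cycling ratios, the co-detection differences and the count of genes lower with Myog were recomputed under other settings, 138 values in all: 116 stayed within the counting interval of the value reported, 22 moved outside it, and none changed the direction of a difference whose interval had left out 0. Under a filter of 2000 genes and 5% mitochondrial UMIs, levels over kept cells were 53.8 (Tm4sf1), 32.3 (Aqp5) and 28.7 CPM (Gja1). Tm4sf1 averaged over cells stood at 47.2 CPM. With Myog limits of 200 and 2000 CPM the log2 ratios between the Myog classes were -4.13, -4.01 and -3.69 (same order). With the median of all genes set to 0 they were -3.51, -3.48 and -3.02, and 1485 rather than 2233 genes were at least 2-fold lower. Without Malat1-poor cells the Pax7 ratios of Tm4sf1 and Aqp5 were 0.48 and 0.77, and the cycling ratio of Tm4sf1 was 0.0327. Chosen after seeing the data, omission of the 5% of cells with the most UMIs gave Myog ratios of -4.21, -4.11 and -3.70. At 1500 CPM of Myog or more it gave Pax7 ratios of 2.02 (Tm4sf1) and 1.92 (Gja1) and a cycling ratio of 1.42 (Tm4sf1, 2.14 with all cells). The causes were not tested. Division by Pax7 at 150 and 50 CPM and reading pairs of genes in different files were also chosen after seeing the data.

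Leaving out 1 file gave 62 of 64 values within the interval. Pax7 ratios ranged from -0.0520 to 0.18 for Tm4sf1, the highest without replicate 1, and from 0.0170 to 0.53 for Aqp5, the highest without replicate 4. Fewer files also leave more cells without a Pax7 UMI. Over the same omissions the Myog ratios ranged from -3.84 to -3.79 (Tm4sf1), -3.82 to -3.74 (Aqp5) and -3.30 to -3.28 (Gja1). No paired analysis was possible because the series has 1 group and its files hold the same cells. Intervals cover counting error only, molecules may be counted in more than 1 file, and values near 1 CPM rest on few UMIs.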
